A study of Homo sapiens with 6 samples.

Results

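The Kruppel-like factors are DNA-binding proteins with a conserved block of C2H2 zinc fingers at the carboxyl end, which contacts GC-rich and CACCC sequences in promoters and enhancers. The block in front of the fingers differs between members and decides which cofactors they recruit. KLF2, KLF4, KLF5, KLF6 and KLF7 act mostly as activators, KLF3, KLF8 and KLF12 recruit the corepressor CtBP, and KLF9 and KLF11 bind the corepressor SIN3. In epithelia the family is known for the balance between division and differentiation, with KLF5 linked to dividing basal cells and KLF4 to cell cycle exit and barrier formation.

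These 10 genes were examined among 18417 genes measured in untransfected MCF10A cells and in MCF10A-SNAI1 cells. They were chosen by symbol, with earlier results of these data known, and each had 1 probe set with its symbol alone. MCF10A is an immortalized, untransformed line of human mammary epithelial cells. The MCF10A-SNAI1 line was made by transfecting MCF10A with a plasmid for SNAI1-Flag, driven by a CMV enhancer and a chicken beta-actin promoter, and selecting with puromycin. SNAI1 is a transcriptional repressor that induces epithelial-mesenchymal transition. Each line had 3 Affymetrix HuGene arrays of total RNA, named biological replicates in the labels, and the study asked which genes change upon SNAI1 expression. Cells were grown in a mammary epithelial growth medium with cholera toxin. The article names ATCC as origin of the MCF10A cells, which were a gift from the Bonn medical school. The University of Florida is given as maker of the MCF10A-SNAI1 line. The article does not say whether both go back to the same stock. The control cells also carried no vector. Effects of SNAI1 thus cannot be told apart from those of transfection, puromycin, cell stock or time in separate culture. Neither the labels nor the article say whether the selected line was 1 clone or a pool.

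Medians of the 6 arrays lay between 6.04 and 6.091 on the log2 scale. SNAI1 was at 5.76 ± 0.037 (SD, n = 3) in MCF10A and at 10.51 ± 0.015 (SD, n = 3) in MCF10A-SNAI1, and the E-cadherin gene CDH1 fell by 3.97 on the log2 scale, so both labels matched the arrays. The basal epithelial markers KRT5, KRT14 and ITGB4 were at 13.53, 12.74 and 11.37 in MCF10A, and all 3 fell in MCF10A-SNAI1. KRT17 and TP63 were not analysed here. Of the other general epithelial markers, EPCAM differed by -3.70, KRT18 by -0.65, CLDN4 by -0.12 and KRT8 by 0.95 on the log2 scale. The mesenchymal markers CDH2, ZEB1 and FN1 were higher in MCF10A-SNAI1, by 1.96, 2.04 and 1.47. VIM differed by 0.06 (limma adjusted p = 0.601). The 4 endothelial markers lay between 4.74 and 5.17 in MCF10A and between 4.80 and 5.20 in MCF10A-SNAI1, and none was called different by limma or the methods' t-test (0 of 4 also at an unadjusted p below 0.05). The RNA came from whole cultures, so a change in every cell and a change in the share of expressing cells cannot be told apart. Values below are deposited log2 values, and every log2 fold change gives MCF10A-SNAI1 relative to MCF10A. A gene was called when its Benjamini-Hochberg adjusted p from limma, over all probe sets, was below 0.01 and its change exceeded 2-fold. The p-values set the difference between the lines against the spread of arrays within a line, and the small number of arrays limits the precision. They do not cover differences between separately made MCF10A-SNAI1 lines.

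Of the 10 Kruppel-like factors, KLF12 rose, KLF4 fell and 8 were not called, against 5.64% of all genes called in either direction, 3.1% higher and 2.54% lower. A further 4 genes, KLF3, KLF5, KLF6 and KLF7, were lower by less than 2-fold, each with an adjusted p under 0.01. In all, 6 of the 10 genes passed that p at any fold, against 23.2% of all genes. Of these, KLF5 and KLF6 passed it in only 9 and 8 of 15 alternatives. The median log2 fold change of the 10 genes was -0.331, beside -0.0132 over all genes. On 9 of the 10 genes the arrays of the lines did not overlap, which was so for 48.3% of all genes. With 3 arrays against 3, the smallest p of an exact two-sided permutation test is 0.1, which those 9 genes gave. As the 10 genes were chosen with earlier results of these data known, their counts beside all genes are not independent evidence. All 10 genes lay above the lowest 20% of values, a limit of 3.938, in both lines. This position does not by itself show expression, since the table holds no detection calls.

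**Figure D1:**
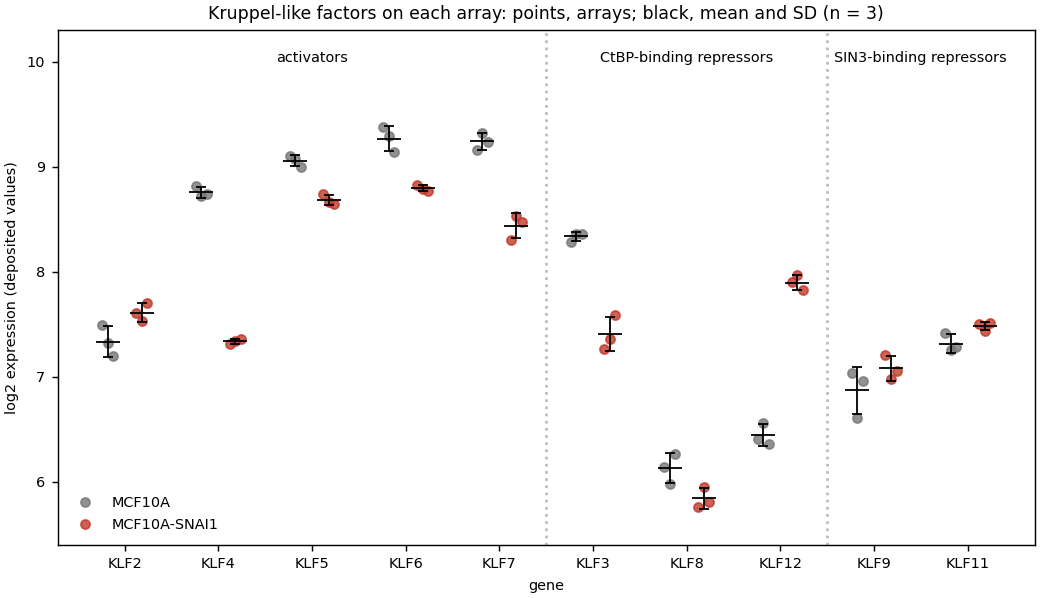
Deposited log2 values of the 10 Kruppel-like factors (vertical axis), where each point is 1 array, grey for MCF10A and red for MCF10A-SNAI1, and black marks give mean and SD over 3 arrays. The KLF4 points drop from near 8.76 to near 7.34, the KLF12 points climb from near 6.45 to near 7.90, and only the KLF9 points overlap between the lines.

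KLF4, a zinc finger factor of differentiating epithelium and of pluripotent cells, had the strongest fall among the 10 genes. It was at 8.82, 8.72 and 8.74 on the MCF10A arrays and at 7.31, 7.34 and 7.36 on the MCF10A-SNAI1 arrays. The lowest MCF10A array lay 1.36 above the highest MCF10A-SNAI1 array, and the spread within each line was small. This was a 2.68-fold fall (-1.42 ± 0.059 on the log2 scale, estimate and standard error, limma adjusted p = 7.30e-06). It ranked as the 253rd lowest log2 fold change among all genes, and 2.96% of genes had a larger change in either direction.

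KLF12, which represses transcription through CtBP and was first described as a repressor of the AP-2 alpha gene, moved the opposite way. It was at 6.41, 6.56 and 6.36 in MCF10A and at 7.90, 7.97 and 7.82 in MCF10A-SNAI1. Every MCF10A-SNAI1 array lay above every MCF10A array, by at least 1.26. The rise was 2.73-fold (1.45 ± 0.077 on the log2 scale, estimate and standard error, limma adjusted p = 2.20e-05). It ranked as the 279th highest log2 fold change, and 2.85% of genes had a larger change in either direction.

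The promoters of these 2 called genes are shown because Snail proteins bind E-boxes, the sequence CANNTG, with CACCTG or its complement CAGGTG as the preferred form. The RefSeq promoter table, on GRCh38.p14, held 20 start sites for 9 of the 10 genes, and KLF3 was not among them. Each line gives the 250 bases in front of a start site (position 0), 5′ to 3′ on the gene's strand, with E-boxes in capitals. KLF4 has 1 start site in the table, at chr9:107489770-107490019 on the minus strand, and KLF12 has 4, of which the one at chr13:74134405-74134654, also on the minus strand, is shown because it holds a CAGGTG.
KLF4: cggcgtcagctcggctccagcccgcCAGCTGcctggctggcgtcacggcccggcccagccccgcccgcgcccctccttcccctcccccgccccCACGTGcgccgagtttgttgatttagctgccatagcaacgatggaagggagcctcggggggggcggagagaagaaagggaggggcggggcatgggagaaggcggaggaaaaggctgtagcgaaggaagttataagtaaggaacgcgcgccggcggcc
KLF12: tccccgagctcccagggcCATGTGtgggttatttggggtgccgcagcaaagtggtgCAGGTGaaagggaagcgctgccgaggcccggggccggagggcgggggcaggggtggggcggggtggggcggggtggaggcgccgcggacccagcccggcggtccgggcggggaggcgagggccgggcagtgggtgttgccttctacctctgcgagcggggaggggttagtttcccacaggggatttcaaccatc
The KLF4 window holds 2 E-boxes, CAGCTG at -225 and CACGTG at -157 from the start site, and neither is the CACCTG or CAGGTG form. The KLF12 window holds CATGTG at -232 and CAGGTG at -194. Over windows of 300 bases, from 250 before to 50 after the start, CACCTG or CAGGTG was found on either strand in 2 of the 20 windows of these genes, both at KLF12, and in 20.6% of 35116 windows of all genes. Any CANNTG, which includes the former, was found in 13 of the 20 and in 68.7% of all. The CACCC box, read on both strands and a sequence that the family itself binds, was found in 11 of the 20 and in 59.9% of all. A match describes letters in these windows and is not evidence of binding. The array does not tell which start site was used.

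Among the other activators, KLF7, which is known from neuronal development, was at 9.16, 9.32 and 9.24 in MCF10A and at 8.30, 8.53 and 8.47 in MCF10A-SNAI1. It was thus lower on all MCF10A-SNAI1 arrays, by 1.75-fold (-0.80 ± 0.083 on the log2 scale, estimate and standard error, limma adjusted p = 4.70e-04). KLF6, an early response factor and suppressor of growth, was at 9.38, 9.29 and 9.14 against 8.82, 8.79 and 8.77. Its log2 fold change was -0.47 (standard error 0.076, limma adjusted p = 0.0038). KLF5, the factor of dividing basal epithelium, was at 9.10, 9.08 and 9.00 against 8.74, 8.66 and 8.64. Its log2 fold change was -0.38 (standard error 0.062, limma adjusted p = 0.0043). The arrays of KLF5 and KLF6 did not overlap between the lines. However, of 15 alternatives the adjusted p was not below 0.01 in 6 for KLF5 and in 7 for KLF6. For KLF6 these included the methods' t-test. In the alternatives tried, including each array left out, the adjusted p of KLF5 reached 0.0217 and that of KLF6 0.0196, and with the replicate number as a block they were 0.0133 and 0.0103.

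KLF2, a factor of quiescent endothelium and lymphocytes that is close in sequence to KLF4, was at 7.49, 7.32 and 7.20 in MCF10A and at 7.60, 7.53 and 7.70 in MCF10A-SNAI1. The lowest MCF10A-SNAI1 array was 0.037 above the highest MCF10A array, a gap smaller than the spread within either line. Its log2 fold change of 0.28 did not pass (adjusted p = 0.0757 from limma), with a 95% interval from 0.06 to 0.49.

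In the CtBP-binding group, KLF3, a broadly expressed repressor, was at 8.29, 8.36 and 8.36 in MCF10A and at 7.27, 7.36 and 7.59 in MCF10A-SNAI1. All MCF10A-SNAI1 arrays were lower and replicate 3 was the closest to the controls. The log2 fold change was -0.93 (standard error 0.092, limma adjusted p = 3.94e-04), a 1.91-fold difference and thus not a call. When MCF10A-SNAI1 replicate 3 was left out it was -1.02 and KLF3 was called, with an adjusted p of 4.03e-04 in a range of 2.02e-05 to 0.0080 over the alternatives. KLF3-AS1, the antisense transcript of this locus, was looked up after the value of KLF3 was seen and differed by 0.06 on the log2 scale (limma adjusted p = 0.726). KLF8, a repressor known from cell motility and from repression of CDH1, was at 6.14, 5.98 and 6.27 against 5.76, 5.95 and 5.81. The arrays were separated by 0.026, less than the spread within a line, and the log2 fold change of -0.29 did not pass (adjusted p = 0.0713 from limma, 95% interval -0.51 to -0.06).

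The SIN3-binding members had the smallest log2 fold changes of the 10 genes, and neither was called. KLF9, a factor induced by glucocorticoid and thyroid hormone, was at 7.04, 6.61 and 6.96 in MCF10A and at 7.21, 6.98 and 7.06 in MCF10A-SNAI1. These arrays overlapped, and MCF10A replicate 2 lay below the rest. The log2 fold change of 0.21 did not pass (adjusted p = 0.312 from limma, 95% interval -0.08 to 0.51), and without that replicate it was 0.083. KLF11, a factor induced by TGF-beta, was at 7.42, 7.25 and 7.28 against 7.50, 7.44 and 7.51. Its arrays were separated by 0.021, and its log2 fold change of 0.17 did not pass (adjusted p = 0.141 from limma, 95% interval 0.01 to 0.33).

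Because a level cannot be set against that of another probe set, only the change of the difference between 2 genes on the same array was read, for 3 pairs chosen after the values were seen. KLF4 minus KLF5 changed by -1.04 on the log2 scale, with an SD of 0.05 among MCF10A arrays and 0.07 among MCF10A-SNAI1 arrays. KLF4 minus KLF2 changed by -1.70, with an SD of 0.11 and 0.08. KLF12 minus KLF3 changed by 2.38, with an SD of 0.10 and 0.22. These values describe the chosen pairs and were not tested, since each pair sets a called gene against a gene already seen to differ from it.

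**Figure D2:**
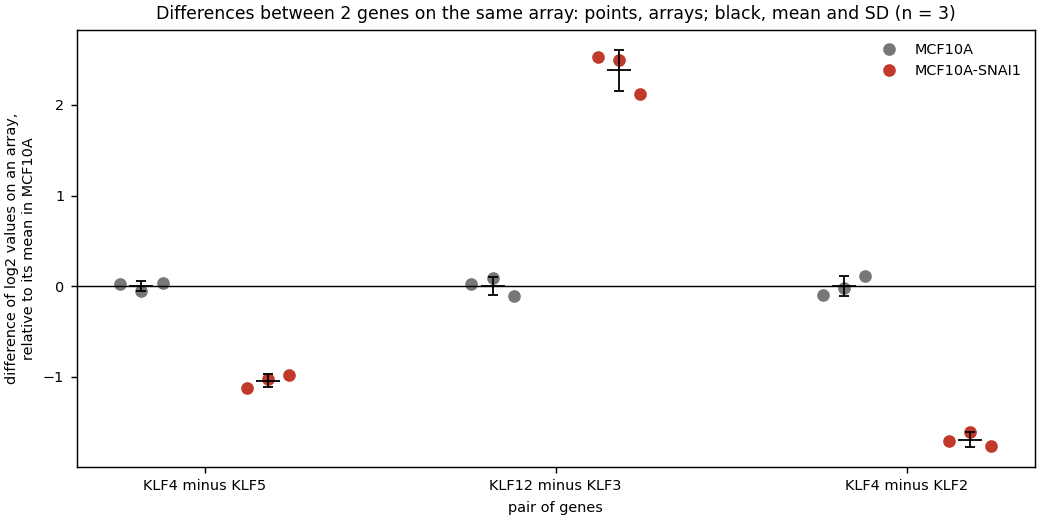
Difference of the log2 values of 2 genes on the same array, relative to its mean in MCF10A (vertical axis), for 3 pairs, where each point is 1 array and black marks give mean and SD over 3 arrays. The MCF10A-SNAI1 points centre on -1.04 for KLF4 minus KLF5, on 2.38 for KLF12 minus KLF3 and on -1.70 for KLF4 minus KLF2.

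The rest of the KLF family and the related SP factors, which share the zinc finger block, gave no call among 15 measured genes, by limma or by the methods' t-test. At an unadjusted p below 0.05, 1 of the 15 was higher and 5 were lower. Over all genes 5.64% were called, and 21% were higher and 21.3% lower at that unadjusted p. The difference of these counts from all genes was not tested. Their median log2 fold change was -0.0412. KLF10, which is induced by TGF-beta like KLF11, was at 8.59, 8.71 and 8.66 in MCF10A and at 8.05, 8.21 and 8.18 in MCF10A-SNAI1, lower at -0.51 (adjusted p = 0.0021 from limma). KLF13, a SIN3-binding member, was lower at -0.40 (limma adjusted p = 0.0033), and SP4, a factor prominent in neurons, higher at 0.50 (limma adjusted p = 0.0035). All 3 were under 2-fold, and their adjusted p reached 0.0118, 0.0169 and 0.0207 in the alternatives. With its probe sets averaged, KLF13 was at -0.27 (limma adjusted p = 0.00775). SP1 and SP3, the ubiquitous GC box factors, were at -0.04 and 0.01 (limma adjusted p = 0.756 and 0.957).

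**Figure D3:**
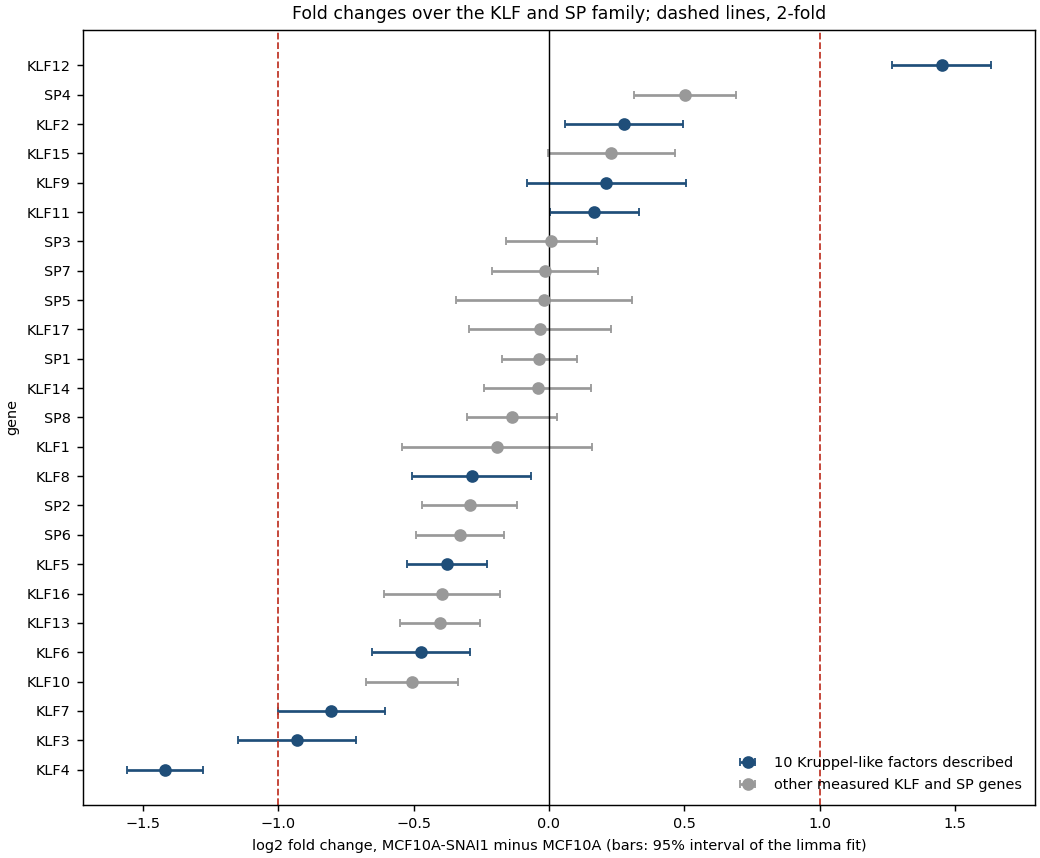
Log2 fold change of MCF10A-SNAI1 against MCF10A (horizontal axis) for the 10 Kruppel-like factors in blue and 15 other KLF and SP genes in grey, with the 95% interval of the limma fit as bars and 2-fold as dashed lines. Only KLF12 at 1.45 and KLF4 at -1.42 lie outside the dashed lines, and the intervals of KLF3 and KLF7 reach to or past the lower one.

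The proteins act through shared cofactors. Of 12 measured corepressors and coactivators, 2 rose, none was called lower by limma or the methods' t-test (2 lower at an unadjusted p below 0.05), and 10 were not called. Over all genes 3.1% were called higher and 21.3% were lower at an unadjusted p below 0.05. The median of the 12 was 0.0883. The 2 were the acetyltransferase genes EP300, at 6.44 ± 0.106 against 8.06 ± 0.044 (SD, n = 3; log2 fold change 1.62, limma adjusted p = 1.09e-05), and KAT2B, which rose by 1.33 (limma adjusted p = 4.67e-05). The EP300 paralog CREBBP was higher under 2-fold at 0.39, and the KAT2B paralog KAT2A was lower under 2-fold at -0.46 (adjusted p = 0.0034 and 0.0020). The partners of the repressors had small differences that did not pass, with CTBP1 at 0.09, CTBP2 at -0.11, SIN3A at 0.09 and SIN3B at 0.13 (adjusted p from 0.344 to 0.379, limma). Of 6 measured ubiquitin ligases that act on these proteins, SMURF2 fell at -1.46 (adjusted p = 9.55e-06 from limma), and SMURF1 at -0.68 and the KLF5 ligase WWP1 at -0.45 were lower under 2-fold (adjusted p = 0.0010 and 0.0014). The median of the 6 was -0.348, and 2.54% of all genes were called lower. The study names or shows EP300, KAT2B and SMURF2, so these counts are not independent evidence.

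In the kinase cascade of ERK5 and MEF2, which induces KLF2 and KLF4 in endothelium, none of 7 measured genes was called by limma or the methods' t-test, 5 were higher and 0 lower at an unadjusted p below 0.05, and the median was 0.215. Over all genes 5.64% were called, and 21% were higher and 21.3% lower at that unadjusted p. MEF2D at 0.59 and MAP2K5 at 0.39 were higher under 2-fold (limma adjusted p = 6.78e-04 and 0.0083). Of all genes, 17.6% passed the adjusted p under 2-fold, in either direction. Of 8 glucocorticoid-responsive genes, the class that KLF9 belongs to, 3 rose and none was called lower (0 also at an unadjusted p below 0.05 and by the methods' t-test), against 3.1% of all genes called higher and 2.54% called lower. Their median was 0.53. ZBTB16 was at 6.95, 6.99 and 6.90 in MCF10A and at 9.28, 9.29 and 9.20 in MCF10A-SNAI1 (log2 fold change 2.31, limma adjusted p = 9.63e-07). TSC22D3, also known as GILZ, rose by 1.35 on the log2 scale and the kinase gene SGK1 by 1.26 (limma adjusted p = 9.48e-06 and 3.95e-05). The receptor gene NR3C1 at 0.21 and the clock gene PER1 at 0.16 did not pass (adjusted p = 0.0873 and 0.146). The study shows ZBTB16 among its changed genes. This list was also chosen with earlier results of these data known, so its count is not independent evidence.

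Of 13 measured immediate early genes, the class of KLF2, KLF4 and KLF6, 1 fell and 7 others passed the adjusted p under 2-fold, 2 of them higher and 5 lower. Over all genes 5.64% were called and 17.6% passed the adjusted p under 2-fold, so the single call was near the background. The median of the 13 was -0.212. No gene was called higher by limma or the methods' t-test. At an unadjusted p below 0.05, 4 were higher and 8 lower, against 21% and 21.3% of all genes. The 2 that passed the adjusted p as higher under 2-fold were DUSP1 at 0.85 and EGR1 at 0.72 (limma adjusted p = 1.58e-04 and 3.52e-04). The stress factor ATF3 fell from 7.68 ± 0.068 to 6.45 ± 0.061 (SD, n = 3; log2 fold change -1.23, limma adjusted p = 2.45e-05).

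Genes described elsewhere as targets of the family were counted from lists and show levels only, not control by any member. These lists were chosen with earlier results of these data known, so their counts are not independent evidence. Of 13 genes described as KLF4 or KLF5 targets in epithelia, 4 fell and none was called higher by limma or the methods' t-test (2 higher at an unadjusted p below 0.05). Over all genes 2.54% were called lower and 3.1% higher, which is the background of the lists that follow too, and 21% were higher at that unadjusted p. The median of the 13 was -0.326. FGFBP1, an FGF carrier protein described as a KLF5 target, went from 11.48 ± 0.011 to 5.59 ± 0.076 (SD, n = 3; log2 fold change -5.90, limma adjusted p = 7.06e-08). CDH1 is in this list too, and it is also a known direct target of SNAI1. The cornified envelope genes SPRR1B and SPRR2A fell at -1.57 and -1.17 (adjusted p = 4.75e-04 and 7.55e-04), but neither was called by the methods' t-test (adjusted p = 0.0129 and 0.0154, the highest over the alternatives). The cell cycle genes CCND1 and CDKN1A were at 0.54 and -0.02 (adjusted p = 7.47e-04 and 0.862). Also under 2-fold, PDGFA was higher at 0.64 and BIRC5 lower at -0.36 (limma adjusted p = 8.39e-04 and 0.0062). Of 8 genes described as KLF6 or KLF11 targets in TGF-beta signaling, the urokinase gene PLAU fell at -4.18 and ATF3, counted above, also fell, and the median was -0.0919. None was called higher by limma or the methods' t-test, with 2 higher at an unadjusted p below 0.05. The ligand gene TGFB1 was higher under 2-fold at 0.88 (limma adjusted p = 6.72e-05). Of 6 genes described as KLF2 or KLF4 targets in endothelium, the thrombomodulin gene THBD fell at -1.10 (adjusted p = 1.05e-04) and the median was 0.0526. None of the 6 was called higher by limma or the methods' t-test, with 1 higher at an unadjusted p below 0.05.

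**Figure D4:**
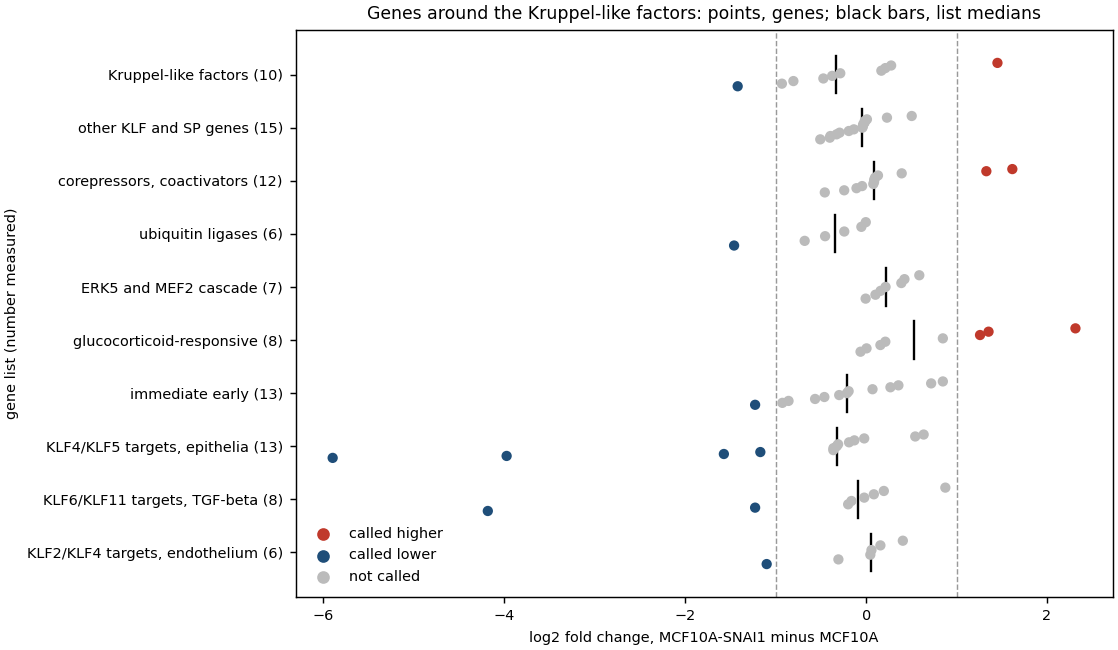
Log2 fold change of MCF10A-SNAI1 against MCF10A (horizontal axis) for each measured gene of the Kruppel-like factors and of 9 lists of related genes, with called genes in red (higher) or blue (lower), other genes in grey and list medians as black bars. The other KLF and SP genes hold no called gene, and the glucocorticoid-responsive list holds 3 called higher, up to 2.31.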

How the data were processed

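Total RNA of 3 MCF10A and 3 MCF10A-SNAI1 samples was measured on Affymetrix HuGene arrays, and groups were taken from the sample titles. The authors deposited normalized log2 values of 33297 probe sets. GC RMA within GeneSpring GX is the method in the article, whereas GCOS, MAS5 and Expression Console 1.1 are named in the submitters' processing notes. The program behind the table is thus unsettled. The background correction could not be varied and can shrink or stretch changes of dim genes.

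Of the probe sets, 19460 had 1 symbol, 1754 several and 12083 none. The brightest single-symbol probe set gave 18417 genes, with symbols updated to GRCh38.p14 through gene IDs. The values were compared with limma 3.58.1 in R 4.3.3 by lmFit and eBayes, with no covariate and no filter. The code was tested on simulated data. Named genes were the 10 Kruppel-like factors, SNAI1 and CDH1, other KLF and SP genes at an adjusted p below 0.01, and up to 4 called genes per direction of each list. Other genes were named after their values were seen. The members and lists were chosen with earlier results of these data known. SP9, BAP1, FKBP5, EGR2 and LAMA3 were not analysed here. Alternatives were the methods' t-test, averaged probe sets, no fold threshold, leaving out each array, a block for replicate number, quantile normalization, median centring, trended and robust variance moderation together, and removal of dim probe sets. Protein sequences were not analysed here.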

Additional observations from a re-analysis of the deposited data

How the results depend on the processing

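KLF12 was called higher and KLF4 lower in all 15 alternatives, with log2 fold changes of 1.41 to 1.51 and -1.44 to -1.39, and no log2 fold change of the 10 Kruppel-like factors changed its sign in any of them. KLF8 was not tested with the filter above the median, which it did not pass. The number called lower was 2 without MCF10A-SNAI1 replicate 3, where KLF3 was called at -1.02, and 1 without each other array. KLF3 was between -1.02 and -0.86 over the 6 arrays left out. With no fold threshold 5 were lower, adding KLF5 at -0.38, KLF6 at -0.47, KLF7 at -0.80 and KLF3 at -0.93, and the calls over all genes were 2220 higher and 2059 lower, against 571 and 467. At that setting the list counts became 3 for the other KLF and SP genes, 4 for the cofactors, 3 for the ubiquitin ligases, 2 for the ERK5 cascade, 8 for the immediate early genes, 7 for the epithelial targets and 2 for the endothelial targets. Of the epithelial targets, 2 were called by the methods' t-test and 2 with the filter above the median, which tests fewer genes. The replicate block called 1028 genes in all, against 1038, and 1026 of them were shared. It changed no call of the 10 genes, though KLF5 and KLF6 then missed an adjusted p of 0.01, at 0.0133 and 0.0103. Deviations from the group means of same-numbered arrays correlated across probe sets at 0.115, 0.122 and -0.00618, against -0.134 to 0.034 for arrays of different number, and 2 of the 3 numbers correlated best with their own. The numbers were not taken to pair the arrays, since 1 pair was not above 0.1 and no source gives their meaning. Whether some of them shared a batch cannot be settled from these values. The table holds no signal over background, so how far each gene lies above background is unknown.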
